A study of Homo sapiens with 4 samples.

Results

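The 10 genes described here encode core enzymes that remove superoxide and hydrogen peroxide: the peroxiredoxin genes PRDX1 to PRDX6, the superoxide dismutase genes SOD1 and SOD2, the catalase gene CAT and the thioredoxin gene TXN. They were taken by symbol, 10 of the 25411 gene rows in each table, and all 10 had enough reads to be tested. RNA was measured in BEAS-2B cells, an established line of transformed human bronchial epithelial cells, given 5 µM cadmium chloride for 72 h (2 libraries) or grown for 72 h as controls (2 libraries). Both control libraries carry the label of a first experiment and both cadmium libraries that of a second, so experiment and treatment cannot be told apart if these were separate. No label says whether the replicates came from separate cultures. The p-values thus measure only how far these libraries differ, and part of that may be technical.

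Superoxide leaks from the respiratory chain and from oxidases. Superoxide dismutases turn it into hydrogen peroxide, SOD1 in the cytosol with copper and zinc and SOD2 in the mitochondrial matrix with manganese. Catalase in peroxisomes and the peroxiredoxins then reduce the peroxide, and thioredoxin returns electrons to most oxidised peroxiredoxins through a pair of cysteines. Cadmium is not itself redox active, but it binds thiols of the kind on which peroxiredoxins and thioredoxin depend.

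The libraries held 29937242 and 15537382 gene reads for cadmium replicates 1 and 2, and 26529403 and 8609243 for control replicates 1 and 2. Between 490 and 24411 reads fell on each of the 10 genes in each library, far above the 3 reads taken as a floor. Of 8 airway epithelial markers, KRT7, KRT8 and KRT18 had between 2244 and 17978 reads in each library, while KRT5 had 0 or 1 read and KRT19 at most 7. The summed level of these 8 markers was 630 and 656 RPKM (reads scaled by transcript length and library depth) in cadmium libraries, and 653 and 768 RPKM in controls. CD3E, LYZ, PECAM1 and DCN, markers of leukocytes, endothelium and fibroblasts, had 0 reads in all 4 libraries, but VIM and COL1A1 were high throughout, at 458 to 1112 RPKM, and PDGFRB had 24.7 to 31.8 RPKM. The summed leukocyte markers had 6.47 and 4.26 RPKM in cadmium libraries, against 3.87 and 6.496 RPKM in controls, nearly all of it CD14. KRT7 had 129 and 150 RPKM in cadmium libraries, against 268 and 285 RPKM in controls, and was called lower (log2 fold change -1.02, adjusted p = 0.00234, edgeR). EPCAM, at 1.03 to 3.10 RPKM, was called higher (log2 fold change 1.36, adjusted p = 0.0131, edgeR), and KRT17 had 67.3 and 41.7 RPKM in cadmium libraries, against 11.7 and 21.3 RPKM in controls (log2 fold change 1.75, adjusted p = 0.0840). CDH1 had at most 28 reads in any library. Of the 6 epithelial markers tested, 1 was called higher and 1 lower. The part of such marker differences in the results was not tested. In bulk RNA, fewer cells of a type and less RNA per cell cannot be told apart.

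After 72 h with cadmium, none of the 10 genes passed the test, and 16.5% of all 13663 tested genes did. Of those calls 53.6% were higher, or 67.9% when libraries were scaled by size alone. SOD2 and CAT were higher in both cadmium libraries than in either control, by 1.72-fold and 1.17-fold in the fit, with intervals that just cleared 1 and adjusted p-values that missed 0.05. The other 8 genes lay between 0.940-fold and 1.06-fold of control. The test was edgeR's quasi-likelihood test with Benjamini-Hochberg adjustment over all tested genes. Unadjusted p fell under 0.05 for 2 of the 10 genes, SOD2 and CAT, and for 34.0% of all tested genes and 41.9% of those at least as abundant as the lowest of the 10. DESeq2 called 0 of the 10 and 1844 genes in all. Limma-voom called 1 of the 10, SOD2, and 2599 genes in all. Among the 4216 genes at least as abundant as the lowest of the 10, 21.8% were called. A set of 10 genes is too small to tell 0 calls apart from a share of 16.5% or 21.8%. The median log2 fold change was 0.0028 over the 10 genes, 0.0019 over all tested genes and -0.097 over those 4216 genes. Its median size without sign was 0.045, 0.23 and 0.18 in the same order.

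**Figure D1:**
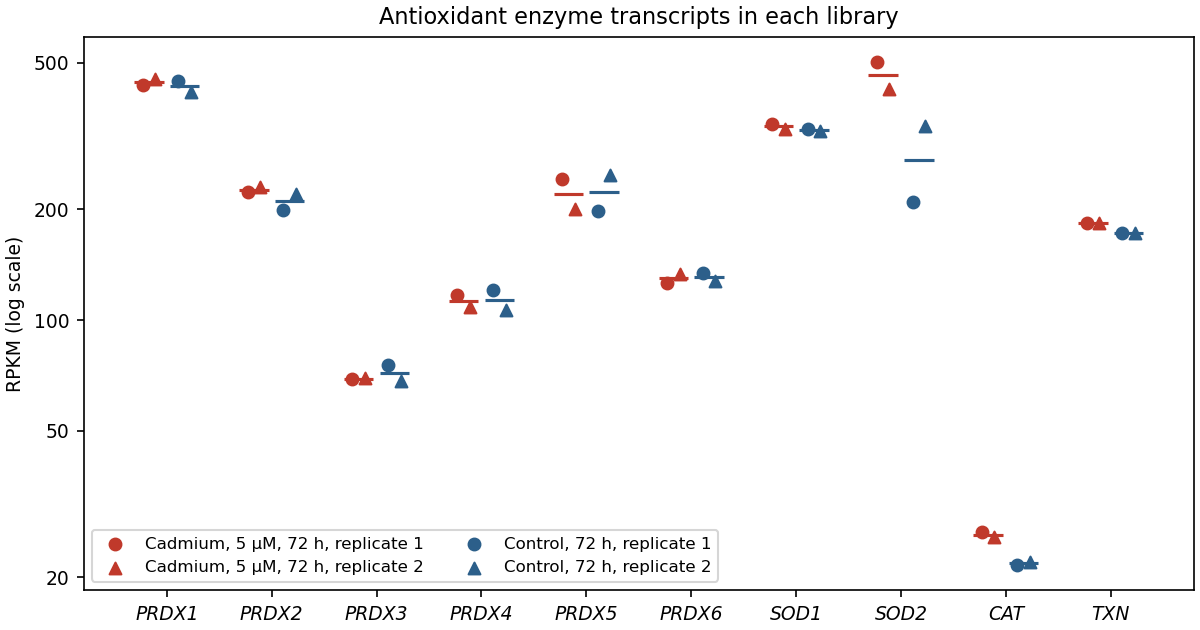
RPKM of each antioxidant enzyme gene in each library on a log axis, cadmium libraries in red and controls in blue, with a bar at each group's mean of 2 libraries. SOD2 shows the widest gap between the control libraries, 209 and 337 RPKM, and CAT is the lowest gene in both groups.

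The peroxiredoxins were abundant and differed little between the groups. PRDX1, a cytosolic peroxidase with paired catalytic cysteines (hg19 chromosome 1, 45976707 to 45988562, minus strand), had 435 and 451 RPKM in cadmium libraries, against 447 and 416 RPKM in controls. The groups overlapped: cadmium replicate 1 lay between the controls and cadmium replicate 2 just above them. Its log2 fold change was 0.0053 (SE 0.079, adjusted p = 0.971, edgeR), and its fold had a 95% interval from 0.885 to 1.14. None of the 12 alternative fits called it.

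PRDX2, the close cytosolic relative of PRDX1 that is very abundant in red cells (chromosome 19, 12907634 to 12912724, minus strand), had 223 and 230 RPKM in cadmium libraries, against 200 and 221 RPKM in controls. In RPKM both cadmium values were above both controls, by 1.01-fold at the closest pair, but in CPM (reads brought to a common library size by TMM factors) the groups overlapped. Its fold was 1.06 with an interval from 0.924 to 1.21 (adjusted p = 0.559, edgeR).

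PRDX3, the peroxiredoxin of the mitochondrial matrix (chromosome 10, 120927215 to 120938377, minus strand), had 69.1 and 69.5 RPKM in cadmium libraries, against 75.7 and 68.3 RPKM in controls. It is the least abundant of the 6, and the cadmium libraries stood between the controls. Its fold was 0.940, interval 0.816 to 1.08 (adjusted p = 0.518, edgeR).

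PRDX4, which works in the endoplasmic reticulum beside protein folding (chromosome X, 23685645 to 23704514, plus strand), had 117 and 109 RPKM in cadmium libraries, against 121 and 107 RPKM in controls. PRDX6, which has a lone catalytic cysteine and relies on glutathione in place of thioredoxin (chromosome 1, 173446486 to 173457946, plus strand), had 126 and 134 RPKM in cadmium libraries, against 135 and 127 RPKM in controls. Both genes had overlapping groups, folds of 0.970 and intervals within 0.835 to 1.13, with log2 values of -0.044 and -0.045 whose sign turned when libraries were scaled by size alone.

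PRDX5, found in mitochondria, peroxisomes and cytosol (chromosome 11, 64085560 to 64089295, plus strand), varied most among the peroxiredoxins. It had 241 and 200 RPKM in cadmium libraries, against 197 and 248 RPKM in controls. The high library was replicate 1 with cadmium and replicate 2 in control, so the gap within each group was wider than the gap between the group means. Its fold was 0.972, interval 0.789 to 1.198 (adjusted p = 0.859, edgeR), and the sign of its log2 value, -0.041, turned with library size alone.

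The make-up of the peroxiredoxin pool can be read without any scaling between libraries. PRDX1 gave 35.9% and 37.8% of the summed peroxiredoxin RPKM in cadmium libraries, and 38.1% and 35.0% in controls. PRDX2 and PRDX5 gave 16.8% to 20.9% each, and PRDX3 gave 5.70% and 5.83% in cadmium libraries and 6.44% and 5.76% in controls. The groups overlapped for the share of every one of the 6 genes. The summed level was 1212 and 1192 RPKM in cadmium libraries and 1175 and 1187 RPKM in controls. A two-sided exact permutation test of 2 libraries against 2 cannot go below p = 0.333, and the shares gave p from 0.667 to 1.

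**Figure D2:**
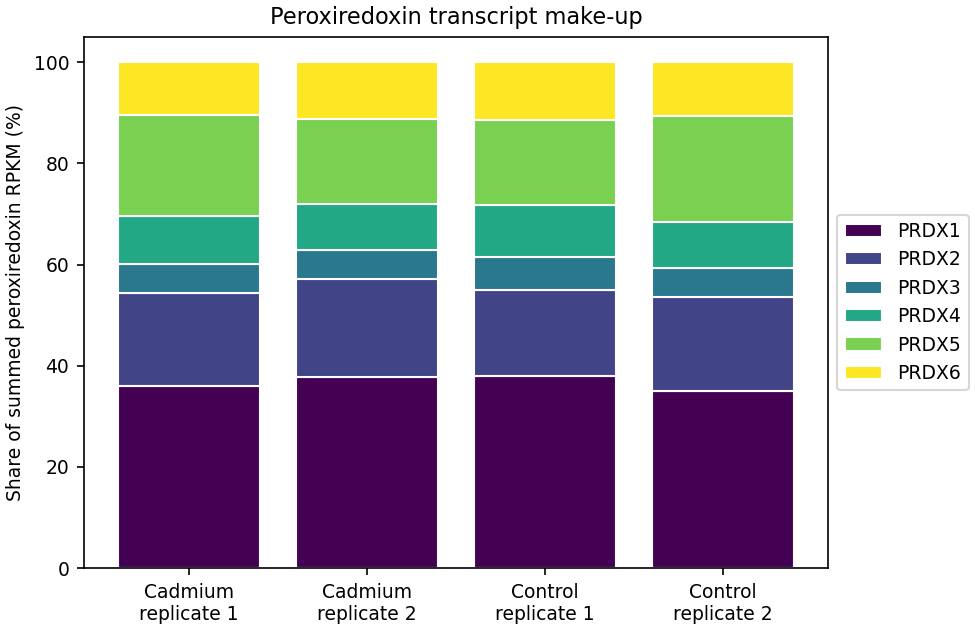
Share of each peroxiredoxin in the summed RPKM of PRDX1 to PRDX6, in percent, as 1 stacked bar for each library, cadmium libraries on the left. The bands keep nearly the same height across the 4 libraries, with PRDX5 moving most, from 16.8% to 20.9%.

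TXN, the cytosolic thioredoxin that reduces peroxiredoxins (chromosome 9, 113006092 to 113018920, minus strand), had 183 and 184 RPKM in cadmium libraries, against 172 and 173 RPKM in controls. Replicates lay very close together and both cadmium values were above both controls, by 1.06-fold at the closest pair in RPKM. The fitted fold was 1.03, interval 0.912 to 1.17 (adjusted p = 0.726, edgeR).

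SOD1, the copper and zinc superoxide dismutase (chromosome 21, 33031935 to 33041243, plus strand), had the log2 fold change closest to 0 of the 10. It had 342 and 330 RPKM in cadmium libraries, against 330 and 327 RPKM in controls, with overlapping groups. Its log2 fold change was 0.00040 (SE 0.074, adjusted p = 0.998, edgeR), and its fold had an interval from 0.889 to 1.13.

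SOD2, the manganese enzyme of the mitochondrial matrix (chromosome 6, 160102755 to 160114353, minus strand), differed most in mean. It had 503 and 424 RPKM in cadmium libraries, against 209 and 337 RPKM in controls, or 24411 and 10964 reads against 8583 and 4532 reads. Both cadmium libraries were above both controls, by 1.26-fold at the closest pair. The controls differed from each other by 1.61-fold, more than the cadmium libraries did (1.19-fold). SOD2 averaged 746 ± 73.2 CPM with cadmium and 434 ± 148 CPM in control (SD, n = 2 each), which gave a log2 fold change of 0.79 (SE 0.27, unadjusted p = 0.0462, adjusted p = 0.140, edgeR). The interval of the fold was wide, 1.02 to 2.93.

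The size and the call for SOD2 depended on which libraries were used. Without control replicate 1 its log2 fold change was 0.47 with an adjusted p of 0.0104, and leaving out control replicate 2 gave 1.17 with an adjusted p of 1.23e-06 (edgeR). Without cadmium replicate 1 it was 0.69 and without cadmium replicate 2 it was 0.88, with adjusted p of 0.612 and 0.525. A fit on a lone library assumes that it varies like the other group. Limma-voom on all 4 libraries gave 0.86 (adjusted p = 0.0239). In the authors' deposited table SOD2 has a log ratio of 0.50, read as log2 although the log2 ratio of the mean RPKM there is 0.76, and an adjusted p of 0.129. That is the lowest adjusted p of the 10 genes in that table.

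CAT, the peroxisomal enzyme that splits hydrogen peroxide without needing a reducing partner (chromosome 11, 34460472 to 34493607, plus strand), had a smaller difference and closer replicates. It had 26.6 and 25.7 RPKM in cadmium libraries, against 21.6 and 22.0 RPKM in controls. Both cadmium libraries were above both controls, by 1.17-fold at the closest pair, and each group's libraries lay within 1.03-fold of each other. CAT averaged 67.6 ± 1.02 CPM with cadmium and 57.6 ± 0.793 CPM in control (SD, n = 2 each), which gave a log2 fold change of 0.23 (SE 0.092, unadjusted p = 0.0354, adjusted p = 0.119, edgeR). The fold had an interval from 1.01 to 1.36. Over 12 alternative fits CAT was higher in all 12, between 0.21 and 0.29 on the log2 scale, and passed in 0 of them, with adjusted p from 0.0671 to 0.473.

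**Figure D3:**
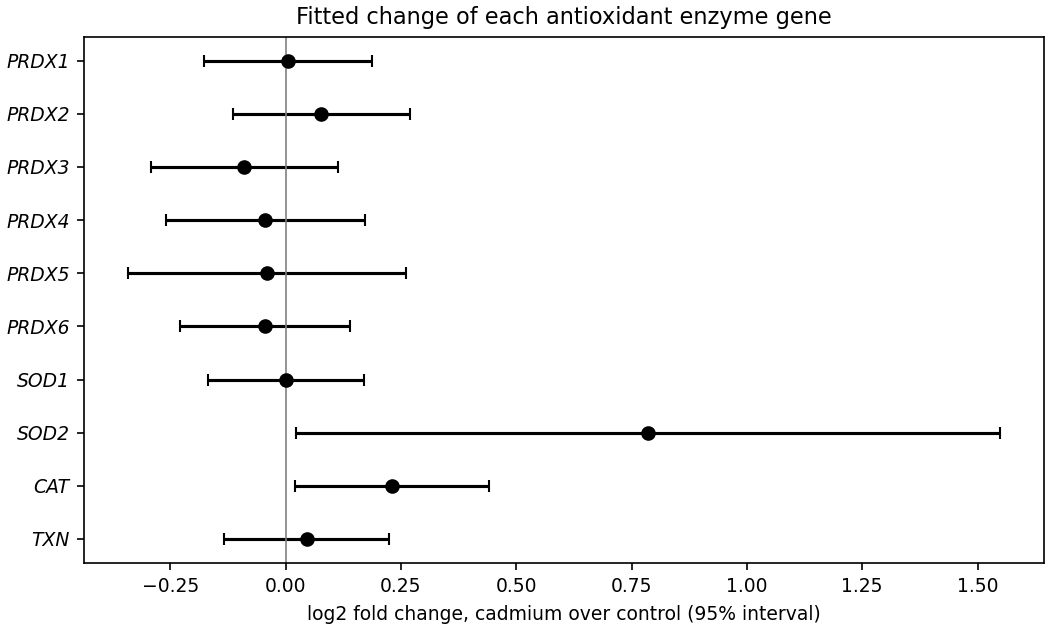
Fitted log2 fold change, cadmium over control, of each gene with its 95% interval from the edgeR fit. SOD2 and CAT have intervals above 0, at 0.022 to 1.55 and 0.020 to 0.44, and the SOD2 interval is the widest.

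Most of the 10 genes had overlapping groups in CPM. Both cadmium libraries lay on the same side of both controls for 3 of the 10 genes (SOD2, CAT and TXN), while 62.1% of all tested genes did so. With RPKM, limma on log2(RPKM + 0.5) called 0 of the 10 genes, also 0 under each alternative of that fit, and 0.156% of 12795 genes. On that scale the differences were 0.80 for SOD2 (adjusted p = 0.142, limma) and 0.25 for CAT (adjusted p = 0.153). These 2 genes had the lowest adjusted p of the 10 in both units.

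The order of the 10 genes by mean RPKM differed at the top. With cadmium it ran SOD2, PRDX1, SOD1, PRDX2, PRDX5, TXN, PRDX6, PRDX4, PRDX3 and CAT, and in control PRDX1, SOD1, SOD2, PRDX5, PRDX2, TXN, PRDX6, PRDX4, PRDX3 and CAT. With cadmium, SOD2 and PRDX1 overlapped between libraries, as did PRDX2 and PRDX5. In control, SOD1 and SOD2, SOD2 and PRDX5, and PRDX5 and PRDX2 overlapped. The means ranged from 26.1 to 463 RPKM with cadmium and from 21.8 to 431 RPKM in control.

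Ratios within a library need no scaling between libraries. The SOD2 to SOD1 ratio of RPKM was 1.47 and 1.29 in cadmium libraries, against 0.634 and 1.03 in controls. For the mitochondrial pair, the SOD2 to PRDX3 ratio was 7.28 and 6.10 in cadmium libraries, against 2.76 and 4.93 in controls. For CAT and PRDX1 the ratio was 0.0610 and 0.0570 in cadmium libraries, against 0.0484 and 0.0530 in controls. Each ratio was higher in both cadmium libraries than in both controls, and each exact permutation p was 0.333, the smallest that 2 against 2 allows (two-sided, 5 ratios computed, so no adjusted value can be lower). All 5 ratios have SOD2 or CAT on top, genes already seen to be higher in both cadmium libraries. The ratios are thus no separate support for those differences.

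**Figure D4:**
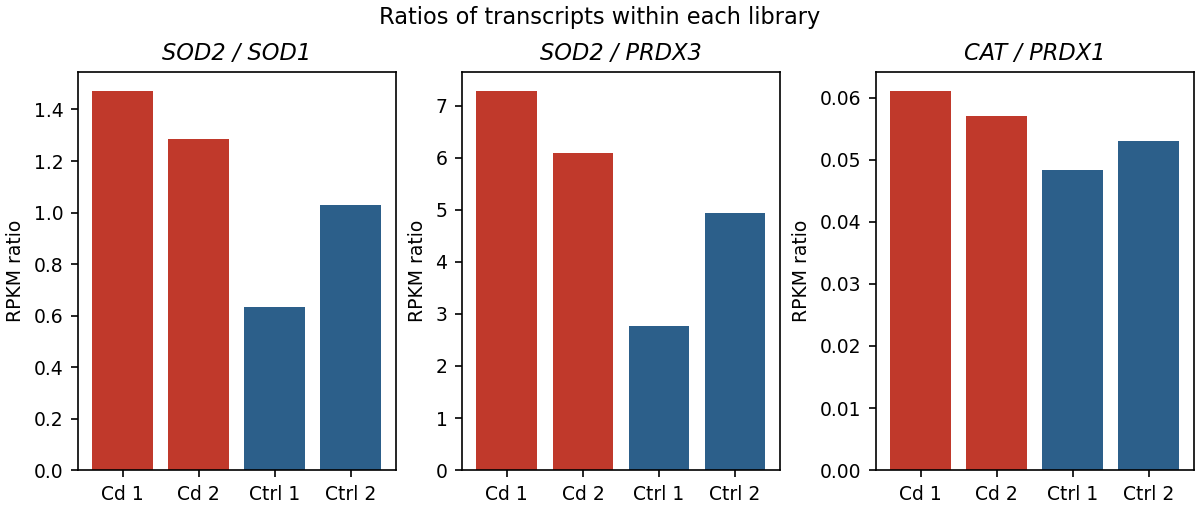
RPKM ratios within each library for SOD2 over SOD1, SOD2 over PRDX3 and CAT over PRDX1, cadmium libraries (Cd) on the left of each panel and controls (Ctrl) on the right, axes from 0. In each panel both cadmium bars are taller than both control bars, and control replicate 2 is the nearer control.

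The sequence upstream of the genes was searched for motifs linked to metals and oxidants. RefSeq promoter windows (GRCh38.p14, 250 bases before to 50 after each start) were matched by symbol for 7 of the 10 genes, with 11 starts. PRDX1, PRDX6 and SOD1 were not searched. The antioxidant response core TGACNNNGC, searched on both strands, was in 0 of the 11 windows and in 13.3% of all 35116 windows. The metal response core spelled TGCGCNC was in 5 of the 11 windows, those of PRDX2, PRDX5, SOD2 and TXN, and in 20% of all windows. The spelling TGCACNC was in 2 of the 11 windows, those of PRDX3 and PRDX4, past their starts, and in 12.1% of all windows. The TGCGCNC matches are shown 5′ to 3′ along the gene's strand, with the matched bases in capitals, to set the gene with the largest mean difference beside genes with folds near 1.
SOD2, 71 bases before the farthest upstream of its 4 starts, chr6:159762335-159762362, minus strand: gagggacggaGTGCGCACatcgggagag
SOD2, 173 bases before another of its starts, chr6:159727541-159727567, minus strand: ccgcaaccccTGCGCTCccctttattt
TXN, 103 bases before the start, chr9:110256594-110256620, minus strand: ggcgtggccgGGGCGCAgcgacgggcg
PRDX5, 52 bases before a start, chr11:64318224-64318250, plus strand: agctggcgtgTGCGCCCtgagacgctc
PRDX2, 212 bases before the start, chr19:12801996-12802022, minus strand: agtctgcggcGGGCGCAttacccacgc
PRDX2, 104 bases before the start, chr19:12801888-12801914, minus strand: ccgcacctgcGGGCGCAgtggacccga

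The SOD2 matches lie at starts 69 kb and 34.1 kb upstream of the last SOD2 start, whose own window held 0 matches. The starts were not matched to the SOD2 transcripts whose reads were counted, which the files place on another build. On hg19 the counted SOD2 row runs from 160102755 to 160114353, a shorter stretch than either distance. It therefore cannot hold both the last start and a start with a match. The first SOD2 window holds 2 overlapping matches, 1 on each strand, and the others hold 1 match each. CAT had none of these spellings in its window, and TXN, PRDX2 and PRDX5 had a match and folds between 0.972 and 1.06. SOD2, CAT and TXN each had both cadmium libraries above both controls. Whether these spellings bear on any difference between the groups was not tested. A match is a stretch of letters, not a shown binding site.

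Sequence shared with copies elsewhere could split the reads of some genes. Between 0% and 5.28% of the 50-base words of each gene's GENCODE v29 transcripts also occur in transcripts of other genes. The share was highest for SOD2 (5.28%), PRDX2 (4.58%) and TXN (4.37%), and 0% for PRDX4, PRDX5, SOD1 and CAT. For SOD2 it was taken over 14313 words and spread over 75 other genes, with most words in HELLPAR, TMEM45A and LINC00506. Whether those words lie in the SOD2 sequence that was counted was not tested. No member shared a word with another member. PRDX1 and its neighbour MMACHC on the other strand overlap by 33 bases in the tables, and the sources used here do not say whether counting used strand.

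Among genes of the thioredoxin and glutaredoxin system, some passed the test. Of 19 listed, 18 were tested, 1 rose, 4 fell and 13 did not pass, with a median log2 fold change of -0.20. The 5 called genes are 27.8% of those tested, against 16.5% of all tested genes. GLRX, the cytosolic glutaredoxin, had 11.8 and 10.5 RPKM in cadmium libraries, against 5.57 and 7.40 RPKM in controls. GLRX rose, with a log2 fold change of 0.84 and an adjusted p of 0.0189 (edgeR). Both cadmium libraries were above both controls.

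The 4 genes that fell were GLRX5, TXNRD2, TXN2 and GLRX2, of which TXN2 and GLRX2 were picked out after their values were seen. GLRX5, needed for iron-sulfur clusters, had 31.8 and 32.9 RPKM in cadmium libraries, against 44.2 and 44.6 RPKM in controls, and fell, with a log2 fold change of -0.49 (adjusted p = 0.0153, edgeR). TXNRD2, which reduces mitochondrial thioredoxin, had 16.6 and 14.4 RPKM in cadmium libraries, against 21.1 and 22.5 RPKM in controls, and fell, at -0.52 (adjusted p = 0.0189). Each of these genes had both cadmium libraries below both controls. TXN2, the mitochondrial thioredoxin, had 57.5 and 51.9 RPKM in cadmium libraries, against 68.7 and 65.9 RPKM in controls (log2 fold change -0.33, adjusted p = 0.0438). GLRX2 had 24.8 and 25.3 RPKM in cadmium libraries, against 43.7 and 29.8 RPKM in controls (log2 fold change -0.61, adjusted p = 0.0458). These 2 calls are near the threshold, were lost with library size alone (adjusted p of 0.0813 for TXN2 and 0.0659 for GLRX2) and under the stricter filter (0.0652 for TXN2 and 0.0614 for GLRX2). DESeq2 gave TXN2 an adjusted p of 0.0578, and without control replicate 1 the GLRX2 value was -0.29.

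Leaving out a cadmium library ended most of these calls, and also lowered the number of calls over all genes. The signs stayed the same. Without cadmium replicate 1 the log2 fold changes were 0.76 for GLRX, -0.45 for GLRX5, -0.61 for TXNRD2, -0.39 for TXN2 and -0.58 for GLRX2. Without cadmium replicate 2 they were 0.91, -0.52, -0.43, -0.26 and -0.63 in the same order. Without cadmium replicate 1, GLRX (adjusted p = 0.140), GLRX5 (0.126), TXN2 (0.143) and GLRX2 (0.202) no longer passed. Without cadmium replicate 2, GLRX (0.0539), GLRX5 (0.0619), TXNRD2 (0.138), TXN2 (0.311) and GLRX2 (0.130) no longer passed. Without control replicate 1, TXN2 (0.0924) and GLRX2 (0.206) no longer passed.

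TXNRD1, which keeps cytosolic thioredoxin reduced, and SRXN1, which repairs overoxidised peroxiredoxins, did not pass, with log2 fold changes of 0.16 and -0.054. TXNIP, which binds and inhibits thioredoxin and was picked out after its values were seen, had 158 and 55.3 RPKM in cadmium libraries, against 17.9 and 28.0 RPKM in controls. Both cadmium libraries were above both controls, but they differed so much that the log2 fold change of 2.21 (SE 0.76) did not pass (adjusted p = 0.202, edgeR). DESeq2 gave TXNIP an adjusted p of 0.0327 and limma-voom 0.0214, and without cadmium replicate 1 its value was 1.26.

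Most other peroxide and superoxide genes did not pass. Of 8 glutathione peroxidases and other superoxide enzymes 7 were tested, 0 rose and 1 fell, or 14.3% called against 16.5% of all tested genes. GPX1, the main cytosolic glutathione peroxidase, had 216 and 203 RPKM in cadmium libraries, against 295 and 271 RPKM in controls. GPX1 fell, with a log2 fold change of -0.46 and an adjusted p of 0.0114 (edgeR), or 0.0575 without cadmium replicate 2. CCS, which loads copper into SOD1, did not pass (log2 fold change 0.079, adjusted p = 0.759).

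Of 13 genes for sources of superoxide and peroxide, 7 were tested with edgeR and 0 passed, with a median log2 fold change of 0.53. Unadjusted p fell under 0.05 for 4 of these 7, against 34.0% of all tested genes. All 4 are named here: ERO1L, ERO1LB and NOX5 were higher in both cadmium libraries than in both controls, and CYBA was lower in both. NOX5 had only 5 to 34 reads in each library. NOX4 and CYBB, oxidase subunits, had 0 reads in all 4 libraries. ERO1L, an oxidase of protein folding in the endoplasmic reticulum, had 15.5 and 15.8 RPKM in cadmium libraries, against 13.1 and 11.6 RPKM in controls (log2 fold change 0.31, adjusted p = 0.0766). Without control replicate 1 (adjusted p = 0.0497) or with library size alone (0.0486) ERO1L passed. Of 14 peroxisome genes, which serve the compartment of CAT, all 14 were tested, 0 passed with edgeR and 1 had an unadjusted p under 0.05. That gene was PEX10, a peroxisomal ubiquitin ligase, at 17.03 and 13.92 RPKM in cadmium libraries, against 18.1 and 25.5 RPKM in controls (log2 fold change -0.50, adjusted p = 0.0925). PEX10 passed without control replicate 1 (-0.74, adjusted p = 0.00574) and with unfiltered genes (adjusted p = 0.0357), and its value was -0.25 without control replicate 2. Over the 4 lists 1 gene rose and 5 fell among 46 tested, or 13.0% called against 16.5% of all tested genes.

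**Figure D5:**
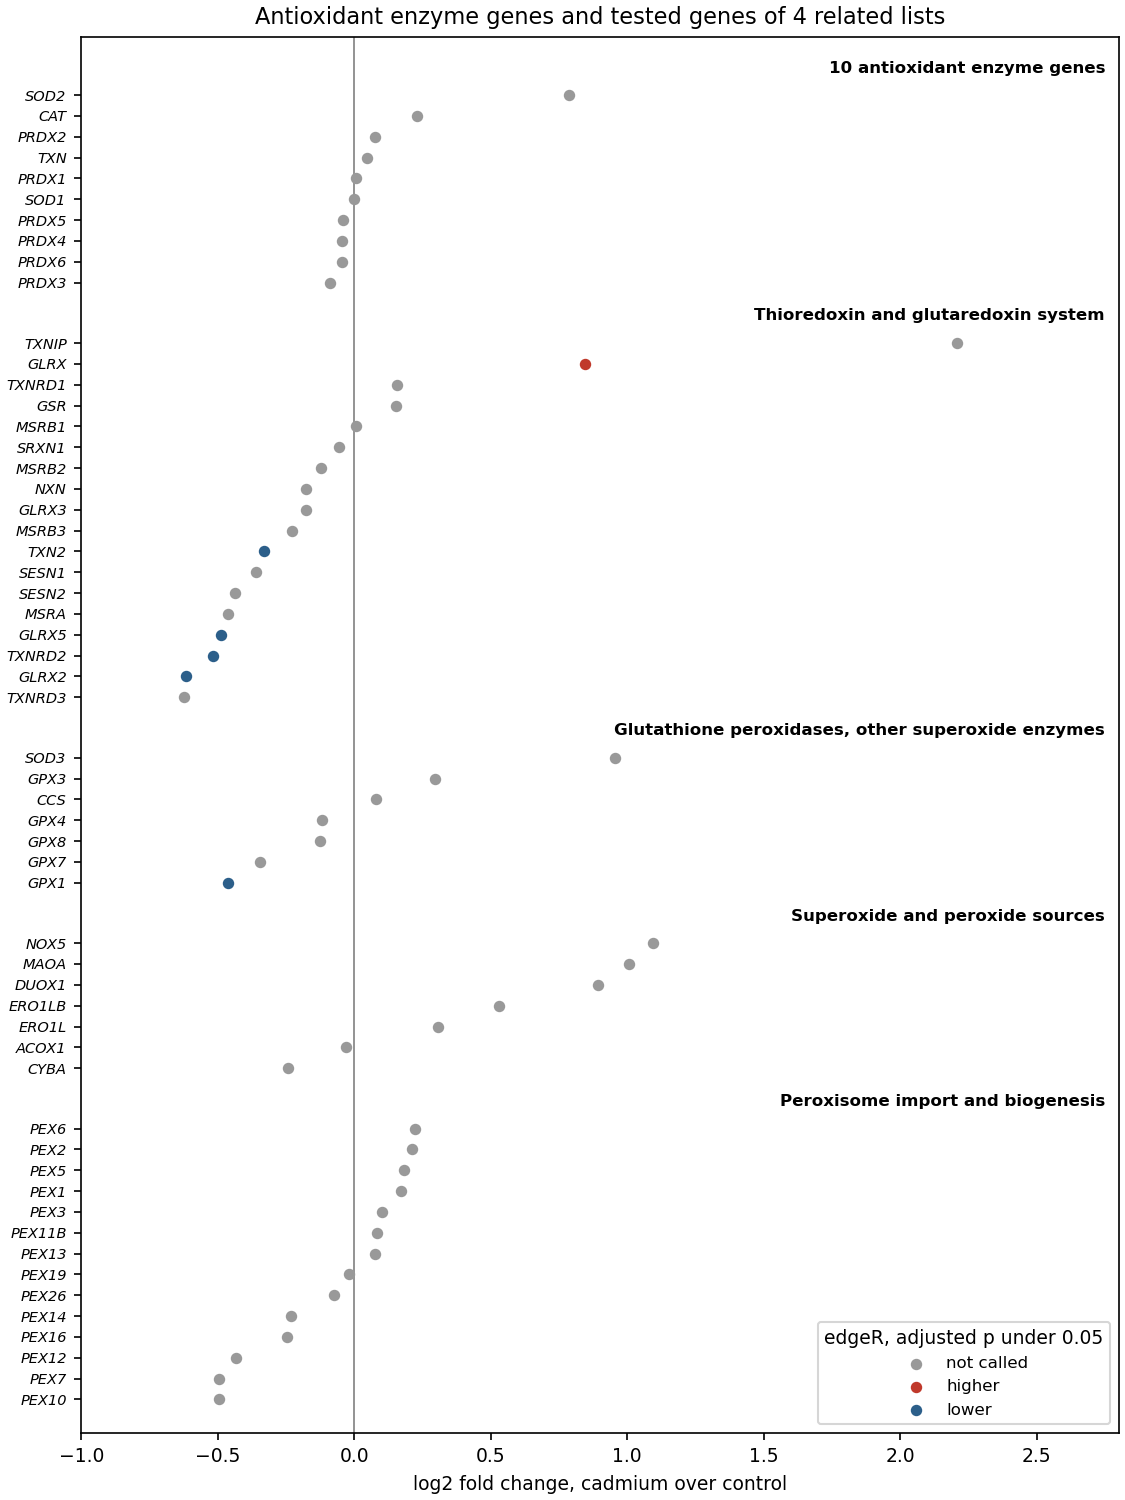
Log2 fold change, cadmium over control, of the antioxidant enzyme genes (top) and of the tested genes in 4 related lists, red for genes called higher, blue for lower and grey for not called (edgeR, adjusted p under 0.05). GLRX at 0.84 is the 1 gene called higher, GPX1, TXN2, GLRX5, TXNRD2 and GLRX2 are lower, and TXNIP at 2.21 is not called.

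The genes whose profiles over the 4 libraries lay closest to those of SOD2 and CAT were sought among 9636 genes of at least 10 CPM. The measure was the Euclidean distance between log2 CPM profiles, each centred on its own mean. For SOD2 they were CHRNB1 (distance 0.058), RHEBL1 (0.060) and PRSS53 (0.12). CHRNB1 had 111 and 93.3 CPM in cadmium libraries, against 46.3 and 76.1 CPM in controls, the same order of libraries as SOD2. For CAT they were RILPL1 (0.014), XPNPEP3 (0.014) and PXK (0.014), with CAT-like log2 fold changes of 0.22 to 0.24. Likeness over 4 libraries is a description only.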

How the data were processed

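Per the file headers, each library's table from the authors gives raw read counts and RPKM per RefSeq gene. A further table by the authors compares the groups by mean RPKM, log2 ratio (the base is a reading of it) and raw and adjusted p-value. STAR 2.4 and the tools DESeq and DESeq2 stand in the submitters' processing notes with builds GRCh37 and hg19, without roles. Not given in the sources used here are the counter, the annotation release and the strand setting. RPKM of genes with several transcripts does not follow reads exactly: reads per RPKM, relative to SOD1, varied by 5.37% between libraries for SOD2, by 1.62% for TXN and by 0.404% or less for the rest.

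Counts were tested with edgeR 4.0.16 in R 4.3.3 (filterByExpr, TMM, robust quasi-likelihood, group alone), adjusted by Benjamini-Hochberg over 13663 genes at 0.05. The SE and the 95% interval come from the F statistic and its degrees of freedom. RPKM was tested with limma 3.58.1 on log2(RPKM + 0.5) for genes averaging at least 0.5 RPKM. Fold changes on that scale understate changes of low genes. Alternatives were DESeq2 1.42.0, limma-voom, other scalings and filters, a replicate block and leaving out each library. The procedure was run on 3 draws of simulated counts with changes planted in 200 genes, each larger than the fitted SOD2 change. The draws took their spread from these data and held no experiment effect. They therefore cannot speak to smaller changes, to that spread or to experiment against treatment. The 10 genes and the related lists were chosen with earlier results of these data known. All 10 genes are named; from each list the 2 called genes with the smallest p in each direction, or else the smallest p, were named, and further genes only where stated or to give their role. Libraries of a group differed beyond sampling noise (chi-square per gene 7.35 with cadmium, 11.3 in control). Protein sequences were not used here. The intervals come from a fit that takes in the spread between libraries of a group, while the floor of counts covers counting error only.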

Additional observations from a re-analysis of the deposited data

How the results depend on the processing

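None of the 10 antioxidant enzyme genes was called lower in any of the 12 alternative count fits, and SOD2 was the 1 gene called higher in some of them. With limma-voom 1 of the 10 was called higher, beside 1391 of all genes. With a crossed replicate block 1 of the 10 was called higher, beside 1551 of all genes. Over all genes 1209 were higher and 1046 lower; leaving out 1 library gave 369 to 1977 higher and 235 to 1791 lower, and library size alone gave 682 lower. With the replicate number as a block 1073 were higher and 811 lower, none of the 10 was called, and TXN2 had an adjusted p of 0.0661. Same-numbered libraries deviated in opposite directions (correlation -0.30), so a crossed pairing was added after seeing the data; it gave 1551 higher and 1471 lower genes. In the related lists 2 genes were higher with DESeq2, limma-voom, library size alone, no filter or the replicate block, 4 with the crossed replicate block, and 0 to 4 when leaving out 1 library. Lower list genes numbered 3 under the stricter filter, 3 under scaling by size alone, 8 with the crossed replicate block and 0 to 5 when leaving out 1 library.

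Signs near 0 turned. With library size alone the log2 fold change was 0.015 for PRDX4, 0.018 for PRDX5 and 0.013 for PRDX6. Leaving out 1 library gave log2 fold changes from -0.055 to 0.059 for PRDX1, -0.13 to 0.051 for PRDX4, -0.20 to 0.12 for PRDX5, -0.093 to 0.0098 for PRDX6 and -0.014 to 0.020 for SOD1. On log2 RPKM these ranges were -0.013 to 0.092 for PRDX1, -0.13 to 0.021 for PRDX3, -0.097 to 0.080 for PRDX4, -0.18 to 0.15 for PRDX5 and -0.055 to 0.028 for PRDX6. The cause was not tested.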
